A study of Mus musculus with 48 samples.

Results

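The mRNAs of 10 translation initiation factors that act at the start codon and at the joining of the ribosomal subunits were followed in mouse pancreatic tumour cells: Eif1, Eif1b, Eif1a, Eif5, Eif5b, Eif6, Eif2a, Eif2d, Denr and Mcts1. They were chosen by gene symbol, each symbol was matched to 1 Ensembl gene, and all 10 of the 50600 genes in the count files passed the filter on low counts, as did 13889 genes in all. The cells were mPDAC, a cell line of mouse pancreatic ductal adenocarcinoma with the genetic background FVB/N x C57BL6 and an age of 8 weeks on its labels. They were either non-treated (NT) or treated for 48 h with N6L, an antagonist of the nucleolar and cell-surface protein nucleolin, which was used at 50 µM. From 1 lysate of each culture, cytoplasmic RNA and the RNA of the pooled polysomal fractions of a sucrose gradient were sequenced after polyA selection. Both arms held emetine-treated cells of the same line, so the groups differed by N6L and by fraction. There were 3 NT cultures, numbered 1, 2 and 4, and 3 N6L cultures, numbered 1, 2 and 3, which gave 12 libraries.

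A eukaryotic ribosome finds its start codon by scanning. The small (40S) subunit, loaded with the initiator tRNA and several factors, moves along the 5′ end of the mRNA, stops at an AUG, releases factors and is then joined by the large (60S) subunit. eIF1 and eIF1A keep the 40S subunit in its scanning state, and eIF1 is the factor best known for making the choice of the AUG strict. eIF1B is a close relative of eIF1. eIF5 makes eIF2 hydrolyse its GTP. eIF5B is the GTPase that brings the subunits together, and it does so with the help of eIF1A. eIF6 holds 60S subunits apart from 40S subunits and takes part in making 60S subunits. eIF2A, eIF2D and the dimer of DENR and MCTS1 bind the 40S subunit without being part of the usual eIF2 complex, and the dimer is known for reinitiation after short upstream reading frames and for clearing 40S subunits after termination.

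Since these proteins read the start codon, the start codons of their own mRNAs are shown, with the 9 bases before and the 3 bases after the ATG in the representative GENCODE transcript on GRCm38, which is the mm10 build of the files. The ATG is in capitals, and the coordinates are those of its 3 bases.

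Eif1 (chr11:100320130-100320132, plus strand): tcgtatcgtATGtcc

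Eif1b (chr9:120492811-120492813, plus strand): tagtgtcgcATGtcc

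Eif5 (chr12:111539616-111539618, plus strand): taagccaaaATGtct

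Eif5b (chr1:37998290-37998292, plus strand): tgacaagcgATGggg

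Eif6 (chr2:155826431-155826433, minus strand): gcctctctcATGgcg

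Eif2a (chr3:58526059-58526061, plus strand): cgggacaagATGgcg

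Eif2d (chr1:131153370-131153372, plus strand): ccagcagacATGttc

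Denr (chr5:123908109-123908111, plus strand): gtttgtgagATGgct

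Mcts1 (chrX:38600768-38600770, plus strand): ccttggatcATGttc

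In the usual start context a purine stands 3 bases before the ATG and a G follows it. The purine was found in 84.5% of 20441 coding transcripts with an annotated start, and among the 9 sequences shown it was absent from Eif1, Eif1b and Eif6. Thus the mRNAs of eIF1 and of its paralogue both lacked the base that stands there in most transcripts. A G right after the ATG stood in Eif5b, Eif6, Eif2a and Denr, against 49.6% of all these transcripts. Upstream of the start codon, the annotated leader held 5 ATGs in Eif5, 3 in Eif5b and 1 each in Eif1, Eif2d and Denr. An upstream ATG is common, since 54.9% of all transcripts held at least 1. None of the 9 began with a C followed by 4 pyrimidines at its annotated end, the letters of a terminal oligopyrimidine start, which 2.39% of the GENCODE transcripts had. These are letters in an annotated window and carry no measurement of initiation.

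Each library held between 19519911 and 44972333 counts, summed over 4 technical replicates, and the members' counts per library lay between 668 and 40385, so that counting error was small beside the spread between cultures. Of the 7 ductal epithelial markers, 6 were above 10 CPM (a gene's counts as a share of its library, scaled by TMM) in all libraries, and the summed level of the list was between 6427 and 10524 CPM. The exception was Epcam, which lay between 0.035 and 0.30 CPM and did not pass the filter. Each acinar, endocrine, fibroblast, leukocyte and endothelial marker examined was at or under 1 CPM in all libraries. The polysomal library of N6L culture 3 stood apart from the other N6L polysomal libraries for several members, and values without that culture are given beside the polysomal results, the fractions of N6L cells and the translational index. CPM are shares of a library, so a change in the total amount of mRNA per cell cannot be told apart from no change on this scale, and neither can fewer cells of a type from less RNA per cell.

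Levels were compared between genes as CPM per kilobase of the representative transcript. In the NT cytoplasm, Eif1 was the highest with 733 ± 96.5 CPM per kb (SD, n = 3), followed by Eif6 with 202 ± 46.3. Eif5, Eif1a and Denr came next with 107 ± 24.9, 92.3 ± 18.1 and 87.7 ± 20.8 CPM per kb, and the libraries of neighbours in this order overlapped. Eif1b (57.6 ± 13.9), Mcts1 (51.2 ± 9.64) and Eif2a (47.2 ± 7.29) followed, and each overlapped with the gene above it. Eif5b and Eif2d were the lowest with 29.5 ± 7.93 and 29.4 ± 2.05 CPM per kb, and their libraries overlapped each other. In this order only 3 pairs of neighbours were separate in all libraries, namely Eif1 and Eif6, Eif6 and Eif5, and Eif2a and Eif5b. The first of these, in which the mRNA of the scanning factor eIF1 far exceeded that of the 60S-binding factor eIF6, was also found in the other 3 groups. Eif1 and Eif6 ranked first and second in all 4 groups, and in the polysomes Eif5b was the lowest, with 15.0 ± 1.74 CPM per kb in NT and 8.94 ± 5.12 in N6L cells.

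**Figure D1:**
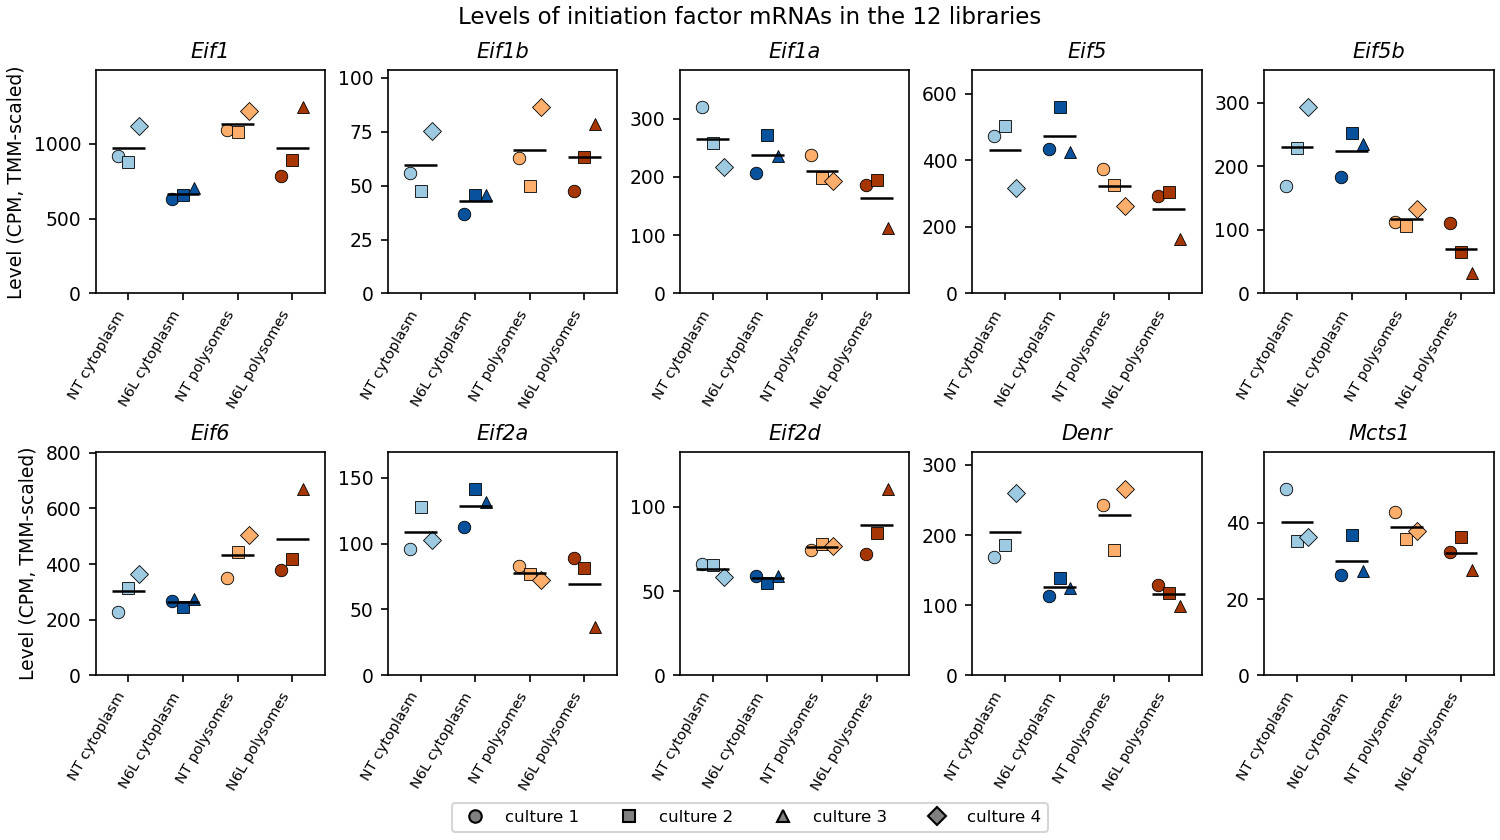
Level of each initiation factor mRNA (CPM, linear axis from 0, a separate scale per gene) in the 3 cultures of each group; symbols give the culture number and lines the group mean. Denr lies lower with N6L in both fractions without overlap, and Eif5b reaches its lowest level, 32.0 CPM, in the polysomes of N6L culture 3.

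The first comparison asked how N6L changed the level of each mRNA in the cytoplasm. Eif1 and Denr fell, and no member rose: 2 of the 10 passed an FDR of 0.05 (edgeR's quasi-likelihood test over all genes), while 28.3% of all genes tested were called in either direction and 13.8% were called lower. The median log2 change of the 10 members was −0.18, beside 0.04 for all genes.

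Denr (ENSMUSG00000023106, chr5:123907175-123928835) encodes the density-regulated protein that pairs with MCTS1. Its cytoplasmic level was 168, 187 and 260 CPM in NT cultures 1, 2 and 4, and 113, 138 and 125 CPM in N6L cultures 1, 2 and 3. All 3 N6L cultures thus lay under all 3 NT cultures, with a log2 fold change of −0.71 ± 0.19 (SE, edgeR FDR = 0.0168). The call was lost without NT culture 4 (−0.53, FDR = 0.0657) or without N6L culture 1 (−0.64, FDR = 0.0557). The share of all genes called was then 15.5% and 23%, against 28.3% with all cultures.

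Eif1 (ENSMUSG00000035530, chr11:100319885-100322096), which encodes the factor that keeps scanning strict, stood at 919, 874 and 1114 CPM in the NT cytoplasm. With N6L it stood at 632, 659 and 707 CPM. The groups did not overlap, and the log2 fold change was −0.54 ± 0.17 (edgeR FDR = 0.0318). The difference was of similar size but was not called without NT culture 1 (−0.58, FDR = 0.0751), NT culture 4 (−0.46, FDR = 0.0992), N6L culture 1 (−0.50, FDR = 0.0622) or N6L culture 2 (−0.58, FDR = 0.0978). In these fits, in that order, 16%, 15.5%, 23% and 9.24% of all genes were called. When transcript length and GC content were corrected for, the difference of Eif1 was smaller and not called (−0.25, FDR = 0.0996).

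Eif1b (ENSMUSG00000006941, chr9:120492232-120495330) was the third member whose groups did not overlap. Its level was 55.8, 47.4 and 75.5 CPM in NT and 36.9, 45.7 and 45.6 CPM in N6L cultures, the log2 fold change was −0.48 ± 0.23, and the edgeR FDR was 0.135. Groups did not overlap for 3 of 10 members, all lower with N6L, against 54.9% of all genes in either direction (25.6% lower and 29.3% higher). When the fit held the cytoplasmic libraries alone, Eif1b passed as well (−0.52, FDR = 0.0382), but 42.2% of all genes were called in that fit. With length and GC correction Eif1b was at −0.029 (FDR = 0.905). The coding sequences of Eif1 and Eif1b agree at 275 of 339 positions (81.1%), with no identical run longer than 25 bases. GENCODE also lists pseudogenes of Eif1, and how reads shared with such copies were counted was not examined, so the levels of both genes are uncertain to that extent.

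Mcts1 (ENSMUSG00000000355, chrX:38600578-38613426), the partner of Denr, stood at 48.8, 35.2 and 36.3 CPM in NT and 26.2, 36.7 and 27.2 CPM in N6L cytoplasm. N6L culture 2 lay within the NT range, and the log2 fold change of −0.42 ± 0.19 was not called (edgeR FDR = 0.103). The other 6 members had log2 fold changes between −0.21 (Eif6) and 0.24 (Eif2a), none called. Of these, Eif5b (−0.04) had a 95% interval from −0.74 to 0.66 and Eif2d (−0.14) one from −0.47 to 0.20.

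In the polysomes, N6L lowered Denr and no other member was called. The share of all genes called was 9.67%, with 3.66% lower and 6.01% higher. The polysomal level of Denr was 242, 179 and 265 CPM in NT and 129, 118 and 99.4 CPM in N6L cultures. Thus the highest N6L culture was well under the lowest NT culture. The log2 fold change was −0.99 ± 0.20 (edgeR FDR = 0.00837), a level of 0.504 times that of NT cells, and without N6L culture 3 it was −0.89 (FDR = 0.0297). It ranged from −1.14 to −0.74 over the alternatives, and the call was lost without NT culture 1 (−0.95, FDR = 0.0535) or N6L culture 2 (−1.01, FDR = 0.0622). In those fits the share of all genes called fell as well, to 1.44% without NT culture 1 and 1.04% without N6L culture 2. Denr was the 1 member of 10 whose groups did not overlap here, against 25.6% of all genes (11.9% lower and 13.7% higher).

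Eif5b (ENSMUSG00000026083, chr1:37998010-38055579), the GTPase of subunit joining, had the second largest polysomal difference, and here the N6L cultures spread widely. It stood at 112, 106 and 132 CPM in NT, and at 112, 65.5 and 32.0 CPM in N6L cultures 1, 2 and 3. N6L culture 1 was inside the NT range while culture 3 was far under it. The log2 fold change of −0.75 ± 0.33 was not called (edgeR FDR = 0.165), but it was called without N6L culture 1 (−1.26, FDR = 0.0196) and when no gene was filtered out (−0.74, FDR = 0.00469). Without N6L culture 3 it was −0.40 (FDR = 0.333). The share of all genes called was 11.2% without N6L culture 1, 6.66% with no filter and 7.77% without N6L culture 3. The remaining members lay between −0.35 (Eif1a) and 0.22 (Eif2d) with overlapping groups. Several of these also moved without N6L culture 3, with Eif5 going from −0.34 to −0.10, Eif6 from 0.18 to −0.11, Eif2a from −0.16 to 0.14 and Eif1 from −0.21 to −0.43, none of them called.

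**Figure D2:**
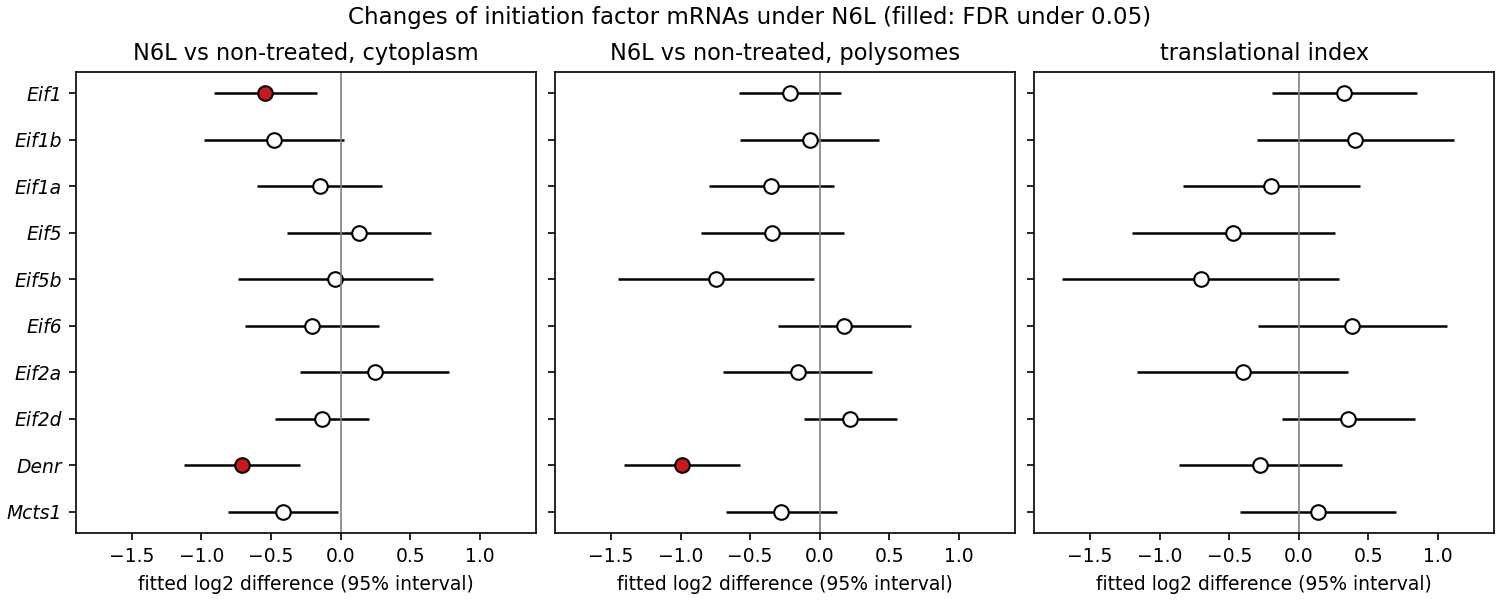
Fitted log2 differences of N6L against non-treated cells in the cytoplasm and in the polysomes, and of the translational index, for the 10 mRNAs; points are edgeR estimates, bars are 95% intervals and red points passed an FDR of 0.05. Red points are seen for Eif1 and Denr in the cytoplasm (−0.54 and −0.71) and for Denr in the polysomes (−0.99), and none for the translational index.

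The next comparison asked how each mRNA was divided between polysomes and cytoplasm. In NT cells none of the 10 members was called by edgeR (0.209% of all genes were) or by DESeq2 (2% were). The culture as a replicate block, which pairs the fractions of a lysate, also called no member (1.46% of all genes were called). In that fit Eif6 was at 0.53 (edgeR FDR = 0.0882) and Eif5b at −0.95 (FDR = 0.125). Without the block, 2 members had an unadjusted p under 0.05 in edgeR, Eif5b and Eif6, against 13.4% of all genes. Groups did not overlap for 3 members, Eif5b and Eif2a lower and Eif2d higher in polysomes, against 22.4% of all genes (12.8% lower and 9.59% higher). The log2 ratio of polysomes to cytoplasm in the single NT cultures was −0.59, −1.10 and −1.15 for Eif5b, and 0.62, 0.50 and 0.46 for Eif6. Eif5b was thus lower and Eif6 higher in the polysomes of each NT culture, with fitted differences of −0.98 ± 0.33 (edgeR FDR = 0.231) and 0.52 ± 0.22 (FDR = 0.342). Eif5b was called when no gene was filtered out (FDR = 0.000164), where its difference hardly moved (−0.96) and 2.5% of all genes were called. It was also called when N6L culture 3 was left out of the shared estimate of spread (−0.97, FDR = 0.0472). In that fit 2.38% of all genes were called. With length and GC correction Eif5b was at −0.61 (FDR = 0.351) and Eif6 at 0.26 (FDR = 0.359).

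In N6L cells, 6 of the 10 members differed between polysomes and cytoplasm, against 39.0% of all genes. Eif1, Eif6 and Eif2d were higher in polysomes (18.4% of all genes were higher), and Eif5, Eif5b and Eif2a were lower (20.6% were lower). Groups did not overlap for 4 members above and 4 below, against 56.9% of all genes (28.4% above and 28.5% below).

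Among the scanning factors, Eif1 had polysomal levels of 783, 892 and 1241 CPM in N6L cultures 1, 2 and 3, beside the cytoplasmic 632, 659 and 707 CPM. The log2 ratio within a culture was 0.31, 0.44 and 0.81, and the fitted difference 0.55 ± 0.17 (edgeR FDR = 0.0238). It shares the N6L cytoplasmic libraries with the fall of Eif1 in the cytoplasm, so these results are not independent. The difference was not called when the fit held the N6L libraries alone (FDR = 0.0604), where 33.2% of all genes were called. Eif1b had ratios of 0.37, 0.47 and 0.78 (fitted 0.56 ± 0.23, FDR = 0.0706). Eif1a (ENSMUSG00000057561, on chromosome 18), which encodes a form of eIF1A, had ratios of −0.16, −0.48 and −1.06 (fitted −0.53 ± 0.21, FDR = 0.0564). Both were called with the culture as a replicate block, which compares the fractions of the same lysate (Eif1b 0.54, FDR = 0.00463, and Eif1a −0.57, FDR = 0.0146), so that 8 members were then called, with 53.7% of all genes called in that fit.

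For Eif5 and Eif5b, which encode factors of GTP hydrolysis and subunit joining, the polysomal levels in N6L cells were lower than the cytoplasmic ones. Eif5 (ENSMUSG00000021282, chr12:111538016-111546752) stood at 433, 559 and 425 CPM in the N6L cytoplasm and at 293, 306 and 164 CPM in the N6L polysomes, without overlap and with a fitted difference of −0.89 ± 0.24 (edgeR FDR = 0.0128). The log2 ratios of Eif5 in NT cultures 1, 2 and 4 were negative as well, at −0.33, −0.63 and −0.26 (fitted −0.42 ± 0.24, FDR = 0.455). Eif5b stood at 183, 252 and 236 CPM in the N6L cytoplasm, above each of the polysomal values given earlier. Its log2 ratios were −0.71, −1.94 and −2.88, and the fitted difference of −1.68 ± 0.34 (FDR = 0.00486) was the farthest from 0 among the 10 members. N6L culture 1 lay within the NT ratios of Eif5b, and the ratios of cultures 2 and 3 lay under all of them.

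Eif6 (ENSMUSG00000027613, chr2:155819832-155826925, minus strand), whose protein binds 60S subunits, went the other way. Its N6L cytoplasm held 266, 245 and 276 CPM and its N6L polysomes 380, 419 and 669 CPM. All polysomal values were above all cytoplasmic ones, with a fitted difference of 0.90 ± 0.23 (edgeR FDR = 0.00929).

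The factors outside the eIF2 pathway were divided among themselves. Eif2d (ENSMUSG00000026427, chr1:131153181-131187658) stood at 59.1, 54.7 and 58.9 CPM in the N6L cytoplasm and at 72.2, 84.6 and 110 CPM in the N6L polysomes, a difference of 0.63 ± 0.16 (edgeR FDR = 0.0092). Eif2a (ENSMUSG00000027810, chr3:58525821-58557501) stood at 113, 141 and 132 CPM in the N6L cytoplasm against 89.2, 81.8 and 37.0 CPM in the N6L polysomes, a difference of −0.89 ± 0.25 (FDR = 0.015). Denr and Mcts1 showed no difference that could be detected, with −0.12 (95% interval −0.53 to 0.30) and 0.09 (−0.30 to 0.49). This comparison within N6L cells does not test whether N6L moved Denr, the member lowered in both fractions, between them.

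The number of calls moved with the cultures in the fit, for the members as for all genes. Without N6L culture 3, 11.7% of all genes were called, and of the members Eif5b alone was called (−1.30, edgeR FDR = 0.0193), while the other 5 kept their sign with Eif1 at 0.38 (FDR = 0.146), Eif5 at −0.73 (0.0615), Eif6 at 0.65 (0.0744), Eif2a at −0.57 (0.0571) and Eif2d at 0.46 (0.0625). Without N6L culture 2, 8.22% of all genes were called, and Eif5b was again the 1 member called. The differences of the 5 others were then as large as before or larger (Eif1 0.62, Eif5 −0.89, Eif6 0.98, Eif2a −0.94 and Eif2d 0.65), at FDRs between 0.0531 and 0.0826. Leaving out N6L culture 1 gave 7 calls (and 5637 of 14100 genes in all), with Eif1a added (−0.72, FDR = 0.0436), and leaving out NT culture 4 also gave 7 (41.8% of all genes), with Eif1b added (0.58, FDR = 0.0321).

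**Figure D3:**
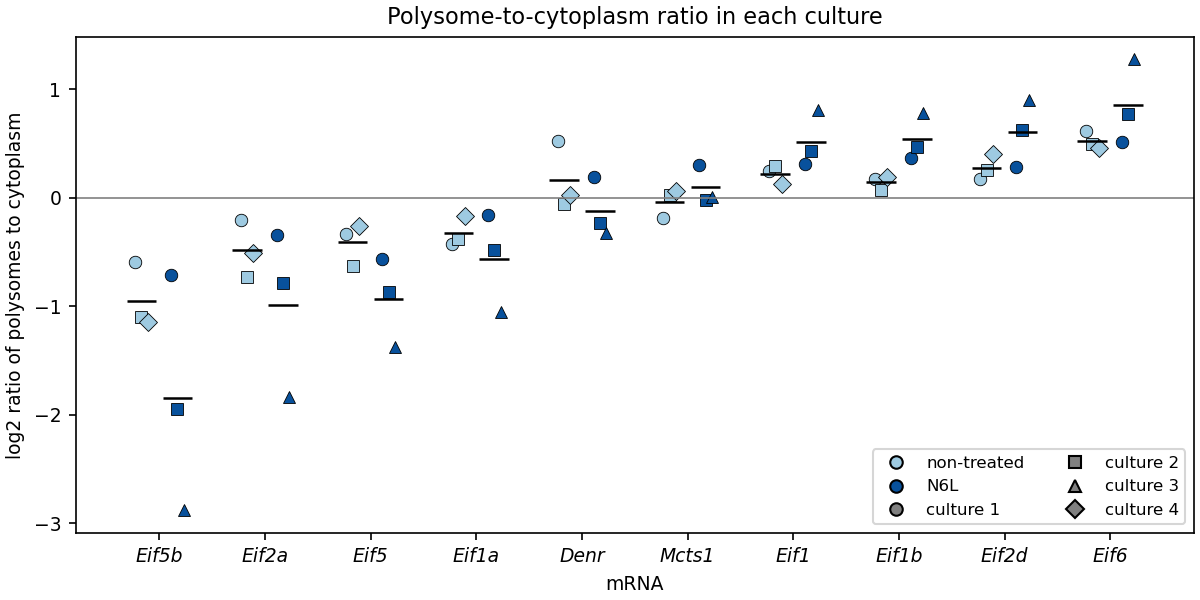
Log2 ratio of polysomal to cytoplasmic CPM in each culture for the 10 mRNAs, ordered by the mean ratio in N6L cells; light points are non-treated, dark points are N6L cultures, symbols give the culture number and lines the group mean. Eif5b lies lowest with N6L ratios from −0.71 to −2.88, Eif6 highest from 0.51 to 1.28, and N6L culture 3 is at the far end for 9 of the 10 mRNAs.

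The translational index was the polysome-to-cytoplasm difference in N6L cells minus that in NT cells. No member was called by edgeR or DESeq2, and edgeR called 0% of all genes. In edgeR without a replicate block, no member had an unadjusted p under 0.05, against 7.73% of all genes. The values of that fit ran from −0.71 ± 0.46 for Eif5b to 0.41 ± 0.33 for Eif1b. With the culture as a replicate block, 2996 of 13889 genes had an unadjusted p under 0.05, and again none was called. Eif5 was then at −0.53 (edgeR FDR = 0.218) and Eif1b at 0.39 (FDR = 0.22). The ratios of Eif1 were 0.25, 0.30 and 0.13 in NT and 0.31, 0.44 and 0.81 in N6L cultures. Those of Eif1b were 0.17, 0.07 and 0.19 in NT cultures, all under its N6L ratios. Eif1 and Eif1b were the 2 of 10 members whose NT and N6L ratios did not overlap, both higher with N6L, against 29.7% of all genes in either direction (15.3% higher and 14.4% lower). Without N6L culture 3 the index was −0.32 for Eif5b, 0.16 for Eif1 and 0.27 for Eif1b, and without N6L culture 1 that of Eif5b was −1.35. With length and GC correction the index was −0.20 for Eif5b, 0.086 for Eif1 and 0.011 for Eif1b. The 95% interval for Eif5b reached from −1.70 to 0.29 and that for Eif1 from −0.19 to 0.85. For Denr the index was −0.28, with a 95% interval from −0.86 to 0.31. Its ratios were 0.52, −0.06 and 0.03 in NT and 0.19, −0.23 and −0.33 in N6L cultures. Thus the calls in N6L cells and their absence in NT cells are not shown to differ by the test of the difference itself.

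Since Eif1 and Eif1b encode close relatives, and Denr and Mcts1 the partners of a dimer, the log2 ratio of their counts was compared within libraries, where the scaling of a library cancels. The Eif1b-to-Eif1 ratio in the cytoplasm was −4.04, −4.20 and −3.88 in NT and −4.10, −3.85 and −3.95 in N6L cultures. The groups overlapped, with a difference of 0.08 (exact two-sided permutation p = 0.6). Mcts1 and Denr also overlapped in the cytoplasm, with −2.35 ± 0.53 in NT and −2.07 ± 0.14 in N6L cells (exact permutation p = 0.5).

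In the polysomes the Mcts1-to-Denr ratio was −2.50, −2.32 and −2.81 in NT and −1.99, −1.70 and −1.86 in N6L cultures. All N6L ratios were higher, by 0.69 on average, at an exact two-sided permutation p = 0.1, the smallest that 3 against 3 cultures can give. This ratio holds the same polysomal counts of Denr that gave its called fall with N6L, so these results are not independent. These 4 ratios (2 pairs of genes in 2 fractions) were read without adjustment, and none could have passed 0.05.

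The members' transcripts differ widely in length, from 783 bases for Mcts1 to 7797 for Eif5b, with 1322 for Eif1, 1500 for Eif6, 2299 for Eif2a and 4050 for Eif5. Over 13867 genes with a length, the difference between polysomes and cytoplasm in N6L cells fell with length (Spearman's rho = −0.625 across genes, which are not independent replicates and share the libraries). In NT cells rho was −0.474, and for the change with N6L it was 0.505 in the cytoplasm and 0.141 in the polysomes. Over the 10 members alone rho with length was −0.745 for the N6L polysomes against cytoplasm.

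When length and GC content were corrected for in each library, 1 of the 6 members that differed between the fractions of N6L cells was called, Eif2a (−0.71, edgeR FDR = 0.0244), while 16.3% of all genes were called in that fit. The other values came nearer to 0, with Eif1 at 0.07 (FDR = 0.692), Eif6 at 0.18 (0.316), Eif5 at −0.28 (0.142), Eif2d at 0.29 (0.0695) and Eif5b at −0.81 (0.0584). With the replicate block in the same fit 4 were called, beside 31.0% of all genes, namely Eif2a (−0.76, FDR = 0.0132), Eif5b (−0.84, FDR = 0.0148), Eif5 (−0.29, FDR = 0.0209) and Eif2d (0.29, FDR = 0.0351). The change of Denr with N6L was much the same after this correction, at −0.75 in the cytoplasm (FDR = 0.00831) and −0.94 in the polysomes (FDR = 0.00398).

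**Figure D4:**
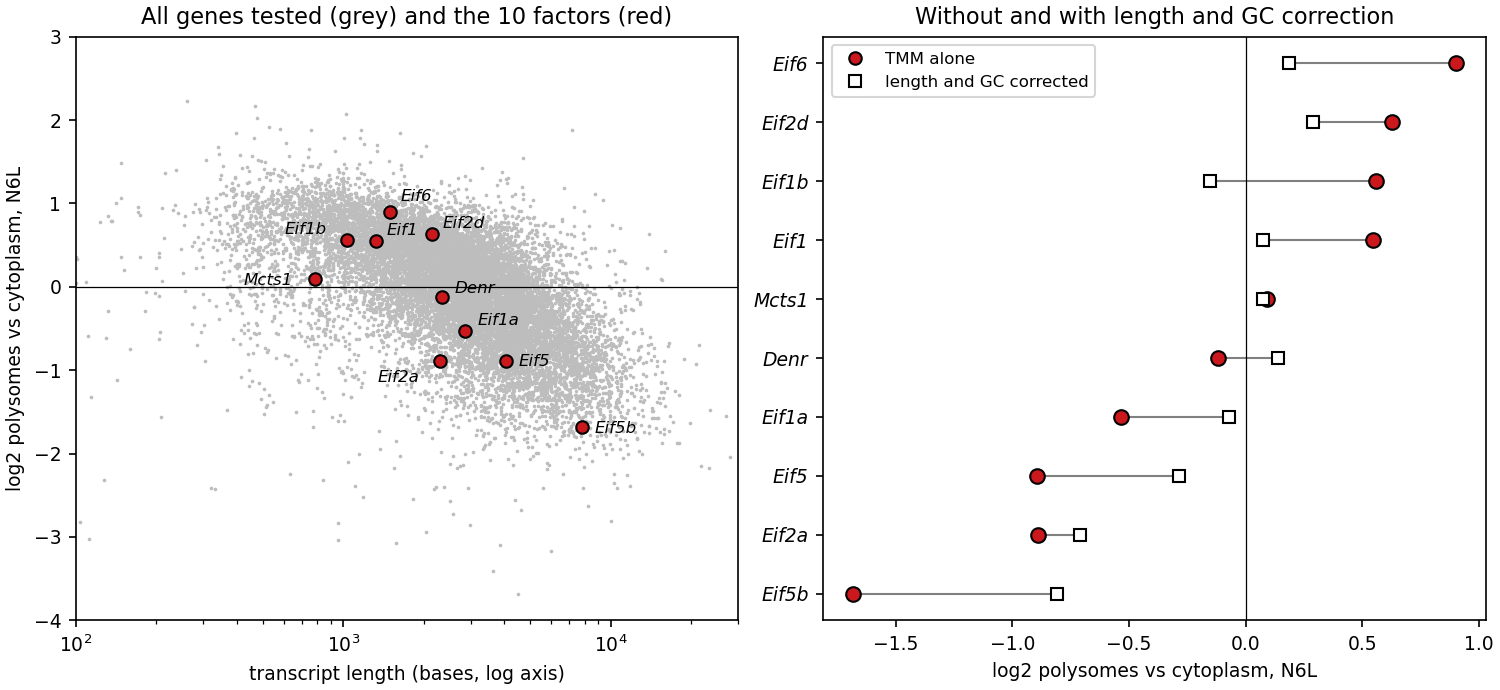
Left, fitted log2 difference between polysomes and cytoplasm of N6L cells against transcript length (bases, log axis) for all genes tested (grey) and the 10 factors (red); right, the same difference for the 10 factors without (red circles) and with (white squares) correction for length and GC content. Long Eif5b lies at −1.68 and short Eif1 at 0.55 on the left, and after correction they lie at −0.81 and 0.07.

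Other factors of the pathway were read from lists grouped by role. Beside the counts that follow stand the shares of all genes called, which were 14.5% higher and 13.8% lower in the cytoplasm, 6.01% and 3.66% in the polysomes, and 18.4% higher and 20.6% lower between the fractions of N6L cells. Of 4 relatives and mimics of the members, 2 fell in the cytoplasm, Eif1ax (−0.56 ± 0.18, edgeR FDR = 0.0317), the X-linked gene for eIF1A, and Bzw2 (−0.40 ± 0.13, FDR = 0.033), whose protein resembles part of eIF5. None of the 4 was called in any of the other comparisons, and the median log2 change in the cytoplasm was −0.48 beside 0.04 for all genes. Eif1a itself was −0.15 in the cytoplasm, and its coding sequence is 85.6% identical to that of Eif1ax, so reads may be shared.

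Among the eIF2 subunits and eIF2B, the exchange factor that recharges eIF2 with GTP, 8 of 9 genes were tested. In the cytoplasm 3 fell, all of eIF2B: Eif2b3 (−0.90), Eif2b1 (−0.62) and Eif2b2 (−0.56). Eif2b3 fell in the polysomes also (−0.98, edgeR FDR = 0.00557), as Denr did. Between the fractions of N6L cells 3 were higher in polysomes, with Eif2b2 first (0.72), and 1 was lower, Eif2s2 (−0.73).

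The 14 genes of eIF3, the large scaffold of the 40S complex, had 6 members that fell in the cytoplasm (13.8% of all genes did), with Eif3k (−1.01), Eif3j2 (−0.70) and Eif3g (−0.67) the farthest, and none that rose. In the polysomes 1 fell, Eif3j2 (−0.72). Between the fractions of N6L cells 5 were higher, led by Eif3i (0.82), Eif3k (0.79) and Eif3g (0.72), and 3 lower, Eif3a (−2.03), Eif3j1 (−0.76) and Eif3j2 (−0.61).

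Of the 10 factors of cap binding and scanning 2 rose in the cytoplasm (14.5% of all genes did), Ddx3x (1.09) and Eif4b (0.59), which encode an RNA helicase and a helper of the helicase eIF4A, and none fell. Between the fractions of N6L cells 5 were lower, with Eif4g3 (−1.57), Ddx3x (−1.35) and Dhx29 (−0.95) the farthest, and Eif4h was higher (0.38). Of 6 genes of 60S maturation, the process in which eIF6 is placed on and taken off the subunit, Mrto4 fell in the cytoplasm (−0.81). In N6L cells Mrto4 (0.68) and Zfp622 (0.54) were higher in polysomes and Efl1 (−0.82), the GTPase that helps release eIF6, was lower. Of 5 termination and recycling genes, none was called with N6L in either fraction, and Abce1 (−1.12) and Gspt1 (−0.88) were lower in the polysomes of N6L cells. No gene of these lists was called for the fractions of NT cells or for the translational index, where 0.209% and 0% of all genes were called.

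Finally, the genes whose log2 CPM over the 12 libraries were most like those of Eif1 and of Eif5b were sought among the 8949 genes that averaged 10 CPM or more. For Eif1 they were Ciao2b, Clpp and Tmem11 (Pearson's r = 0.991, 0.99 and 0.99), and 1077 genes had an r above 0.9. For Eif5b they were Ubxn4, Larp4b and Rad50 (0.985, 0.984 and 0.984), and 244 genes were above 0.9. The 12 libraries share cultures, fractions and treatment, so these values describe a common pattern over the groups and carry no test. The 3 genes like Eif1 have transcripts of 918, 983 and 1457 bases, and the 3 like Eif5b have transcripts of 4113, 5610 and 5153 bases.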

How the data were processed

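The files hold raw counts per gene, which the authors made with STAR, samtools and HTSeq-count 0.5.3 on mm10 from TruSeq stranded polyA libraries and deposited as 48 sets, 4 technical replicates for each of 12 libraries. Technical replicates were compared by chi-square tests of their counts, whose statistic was 1.02 to 1.04 times its degrees of freedom, and were summed. For 3 technical replicates of N6L cytoplasm culture 2, title and description give different culture numbers; they were kept with the title's number and left out in an alternative.

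Genes were filtered with filterByExpr and scaled by TMM in edgeR 4.0.16 (R 4.3.3). A quasi-likelihood model with 1 mean per group over all 12 libraries gave 5 comparisons, adjusted by Benjamini-Hochberg over all 13889 genes (limit 0.05). Log2 CPM used a prior count of 2. Ratios of 2 genes were compared with exact permutation tests. Fractions of 1 lysate are paired by the methods, and their deviations from the group means correlated between 0.0368 and 0.645. DESeq2 1.42.0, other scalings, filters, a replicate block, a 5-df spline for length and GC content, and leaving out cultures were alternatives. Depth per library was 19519911 to 44972333 counts; counting error is only part of the error. Lengths and coordinates come from GENCODE vM21, which holds 50376 of the 50600 gene IDs. Nothing says that cultures were prepared on separate days, so p-values measure the spread between these cultures. The text names all members, per list and comparison up to 3 called genes of largest change, and the 3 genes most like Eif1 and Eif5b. Members and lists were chosen with earlier results of these data known. The scripts were tested on simulated data.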

Additional observations from a re-analysis of the deposited data

How the results depend on the processing

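Of 840 values of the members' 50 fitted differences under 17 alternatives, 756 kept direction and side of the FDR limit, 27 lost a call, 14 gained one and 43 changed sign. Only the 9 differences called as reported could lose a call, so the 27 losses all fell on these 9, and 840 is not their base. None of the 9 called differences changed sign, and no value of changed sign had an FDR under 0.153. With 3 cultures a group, 1 culture could decide a call. Leaving out cultures gave 0 to 2 members changed by N6L in the cytoplasm (2 with all cultures), 0 to 2 in the polysomes (1 with all cultures), 0 to 1 between the fractions of NT cells (0 with all cultures), 1 to 7 in N6L cells (6 with all cultures) and 0 for the translational index. Over these fits the share of all genes called ran from 9.24% to 28.7% in the cytoplasm and from 1.04% to 11.2% in the polysomes. It ran from 0% to 2.38% between the fractions of NT cells and from 8.22% to 41.8% in N6L cells. For the translational index it ran from 0% to 0.00709%. With no filter 2 members were called in the polysomes (6.66% of 25915 genes), 1 between the fractions of NT cells (2.5%) and 8 between those of N6L cells (20.8%). With length and GC correction 1 was called in the cytoplasm (28.4% of all genes) and 1 between the fractions of N6L cells. In N6L cells DESeq2 called 7 (43.5%), library size alone 7 (35.1%) and the replicate block 8, and the block left the other 4 counts as they were. With correction and block 2 were called in the polysomes (20.5%), Eif5 being added (−0.38, FDR = 0.0166), and Eif1 was called in the cytoplasm (−0.30, FDR = 0.0364). Across treatments the block is no pairing, since cultures share only a number (correlations of same-numbered libraries 0.228 and 0.0455 in the cytoplasm, 0.296 and 0.00756 in the polysomes). Number 3 occurs only with N6L and number 4 only in NT. With the block, the treatment difference averaged over the fractions thus came from cultures 1 and 2 alone. Denr in the cytoplasm was then at −0.48 (edgeR FDR = 0.0431), against −0.71 without the block.

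Library size alone moved the median of all genes from 0.04 to 0.19 for N6L in the cytoplasm and from 0.03 to −0.11 between the fractions of N6L cells, while the members' medians moved from −0.18 to −0.034 and from −0.01 to −0.14. Genes called higher then went from 2013 of 3935 to 2588 of 3951 in the cytoplasm, from 835 of 1343 to 1082 of 1394 in the polysomes and from 2559 of 5415 to 1762 of 4881 between the fractions of N6L cells.

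Signs changed as follows, for differences that were called neither as reported nor where the sign changed. In the cytoplasm, Eif5b became 0.11 with library size alone, 0.0082 with no filter and 0.36 with the replicate block, Eif2d 0.0057 with library size alone, and with length and GC correction Eif5 became −0.13, Eif6 0.17 and Mcts1 0.023 (with the block also, Eif1b 0.051, Eif5 −0.15 and Eif6 0.21). In the polysomes, Eif1b became 0.012 with library size alone, 0.023 with the block and 0.069 with correction and block, and Mcts1 0.027 with correction. Between the fractions of NT cells, correction gave Eif1 −0.012, Eif1a 0.042, Eif1b −0.16 and Mcts1 0.072, and with the block −0.011, 0.049, −0.17 and 0.089. Between those of N6L cells, Mcts1 became −0.035 with library size alone, and correction gave Eif1b −0.15 and Denr 0.14, with the block −0.15 and 0.14. For the translational index, correction gave Eif6 −0.078, with the block Eif6 −0.088 and Mcts1 −0.014. Without 1 culture, the cytoplasmic changes of Eif1a ran from −0.31 to 0.0067, of Eif5 from −0.082 to 0.26 and of Eif5b from −0.22 to 0.14, and the polysomal ones of Eif1b from −0.26 to 0.17, of Eif6 from −0.11 to 0.33 and of Eif2a from −0.38 to 0.14. Likewise the fractions of NT cells gave Denr −0.0059 to 0.24 and Mcts1 −0.12 to 0.046, those of N6L cells Mcts1 −0.0040 to 0.18, and the index Eif1a −0.38 to 0.0042. The Eif1b-to-Eif1 difference in the cytoplasm ran from −0.0044 to 0.16. The cause of these changes was not tested.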
